A study of Mus musculus with 2 samples.

Results

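The expression of 10 genes of bone morphogenetic protein (BMP) signalling was followed in lung endothelial cells (ECs) of mice 6 h after an intravenous injection of melanoma cells or PBS. The set held the inhibitor of DNA binding genes Id1, Id2 and Id3, the inhibitory SMADs Smad6 and Smad7, the ligands Bmp4 and Bmp6, and the receptor genes Bmpr2, Acvrl1 and Eng. The genes were taken by symbol from a list of names, and all 10 were found among the 32285 gene IDs that both count matrices list.

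Control C57BL/6 mice had received 100 µl of PBS in the tail vein, and the other group had received 400000 B16-F10 cells, a mouse melanoma line, in the same volume. No group carried a genetic change. Pecam1+ Ptprc- cells were sorted from the lungs at 6 h, in the injected group together with dye-labelled melanoma cells, and the cells of all mice of a group were pooled into 1 single-cell RNA library. The labels give 2 mice per treatment, whereas the study's methods give 3 pooled mice per sample for the experiment with 400000 cells. The methods describe males of 8 to 10 weeks. Since each group is 1 pooled library, the differences below have no replicate check, no p-value is given, and every interval is a 95% interval that covers counting error only. Injection into the tail vein models the arrest of tumor cells in lung vessels and not their release from a primary tumor.

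BMP ligands bind a complex of type I and type II receptors on the cell surface, which phosphorylates SMAD1, SMAD5 and SMAD9. Together with SMAD4 these enter the nucleus and induce the ID genes and the inhibitory SMADs, and the latter feed back on the receptors. In the endothelium, ALK1 (Acvrl1) and BMPR2 with the co-receptor endoglin (Eng) respond to circulating BMP9 and BMP10. Loss of BMPR2 is known from pulmonary arterial hypertension, and loss of ALK1 or endoglin from hereditary haemorrhagic telangiectasia. ID proteins bind E proteins and keep them from DNA.

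The control and B16-F10 libraries held 7830 and 7767 cells after filtering, with a median of 7510 and 8557 unique molecular identifiers (UMIs) per cell. Cells were assigned to vessel types from markers. General capillary (gCap)-like cells numbered 3758 and 3674, aerocyte capillary (aCap)-like cells 1447 and 969, artery-like cells 186 and 140, vein-like cells 300 and 281. LEC-like cells, of lymphatic vessels, numbered 58 and 51. All 8 endothelial markers were detected in each of these types. The 2 libraries shared 18 cell barcodes. An EC cluster of 1114 and 813 cells carried all 8 gCap markers but had the arterial gene Efnb2 among its leading genes, and was left out of the gCap-like cells. A further EC cluster, of 8 and 305 cells, met no vessel type. EC clusters that also met a marker list of other cells were set aside as mixed, with 934 control and 1339 B16-F10 cells (11.9% and 17.2%). Among them were clusters 11 and 14, which carried all 8 gCap markers. The mixed cells are in no vessel type and not in the sums over all ECs. Free RNA was estimated to supply 1.62% of the UMIs of control gCap-like cells and 1.88% of those of B16-F10 gCap-like cells, and at most 2.75% of the level of any of the 10 genes in these cells. Red cell markers summed to 1368 and 1521 counts per 1000000 UMIs (CPM) in control and B16-F10 gCap-like cells. Marker lists of tissue cells were lower than this and differed between the libraries, since epithelial markers summed to 41.1 and 81.7 CPM, macrophage markers to 17.4 and 32.4 CPM, and mural markers to 18.3 and 30.7 CPM. Of the 7 melanoma markers, Mlana, Dct, Tyrp1 and Sox10 had 0 UMIs in control gCap-like cells, and the list summed to 27.3 and 55.5 CPM. The 10 log2 ratios of gCap-like cells without a UMI of markers of other cells, red cells not among them (2024 and 842 cells), kept their directions.

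In gCap-like cells, 4 of the 10 genes were at least 1.5-fold lower after B16-F10 injection, Id2, Bmp4, Smad6 and Smad7, and none was 1.5-fold higher. Among all 12883 genes with at least 50 UMIs in these cells, 9.47% were at least 1.5-fold lower and 7.79% at least 1.5-fold higher. Differences beyond counting error were seen for all 10 genes, 8 lower and 2 higher, while 33.9% and 27.2% of all genes were lower and higher in this sense. The median log2 ratio of the 10 genes was -0.56, against -0.05 for all genes. Smad7, at 1.54-fold, was just past the fold, and its log2 ratio of -0.63 was -0.58 after dividing by the median ratio of all genes and -0.55 without clusters held mostly by 1 library.

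**Figure D1:**
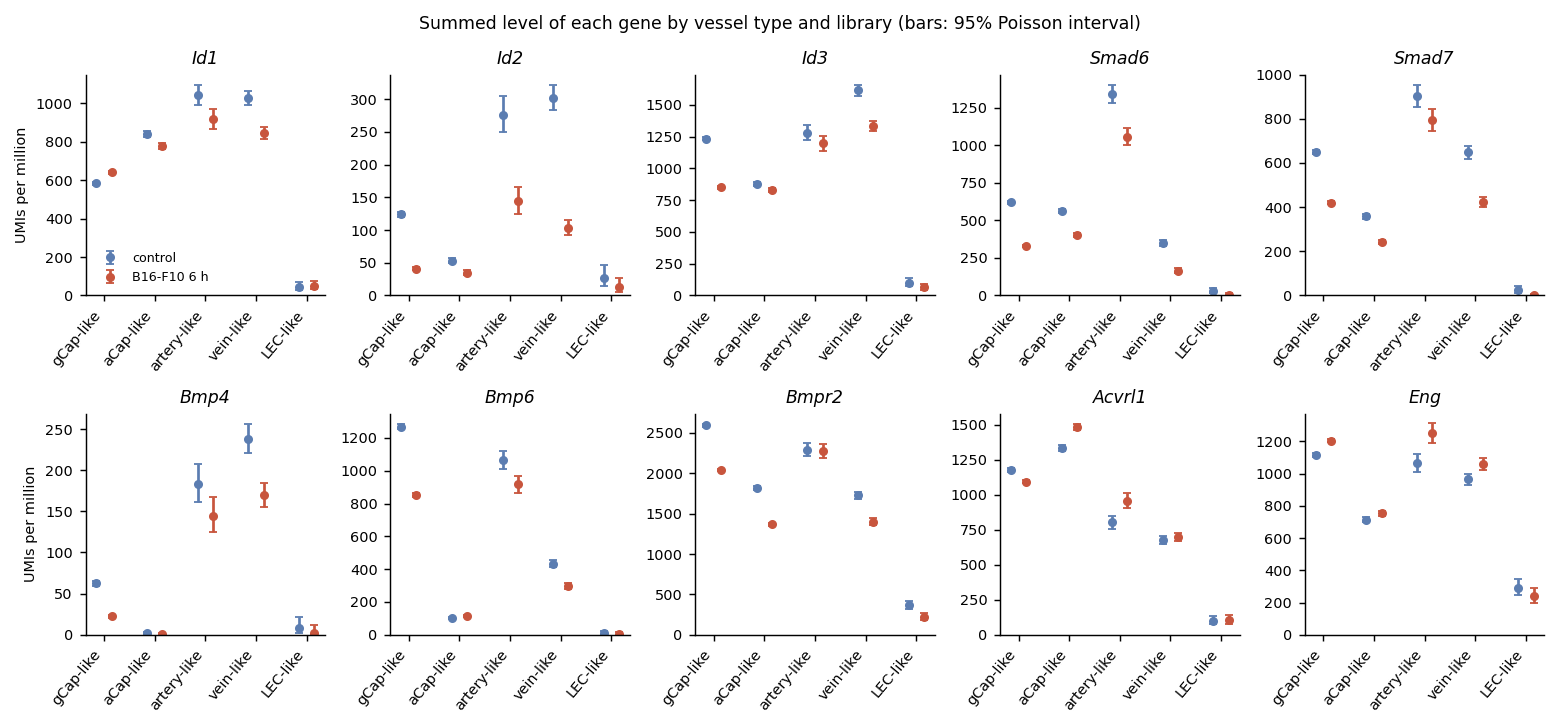
Level of each gene (CPM, linear axis from 0) in each vessel type of the control (blue) and B16-F10 6 h (red) library, as the sum over cells with its 95% Poisson interval. Id2 was lower in the B16-F10 library in gCap-like, aCap-like, artery-like and vein-like cells, and in LEC-like cells no gene was above 366 CPM in either library.

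Of the ID genes, which encode partners of E proteins without a DNA-binding region, Id2 differed most. Id2 (ENSMUSG00000020644, GRCm38 chr12:25093799-25097140, minus strand) had 3462 UMIs in control gCap-like cells, a level of 124 CPM, and 1323 UMIs in B16-F10 gCap-like cells, 41.0 CPM. This is 3.02-fold lower, with a log2 ratio of -1.59 (-1.69 to -1.50). Id2 was lower beyond counting error also in vein-like cells, at 302 and 104 CPM (log2 ratio -1.54), in artery-like cells, at 276 and 144 CPM (-0.94), and in aCap-like cells, at 53.0 and 34.7 CPM (-0.61). Vein-like and artery-like cells had the highest Id2 levels in the control library, and their intervals (283 to 322 and 250 to 305 CPM) overlapped. In the B16-F10 library artery-like cells were above vein-like cells, with intervals of 124 to 166 and 92.8 to 116 CPM.

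Id3 (ENSMUSG00000007872, chr4:136143497-136145755, plus strand) was lower by less. Its level was 1233 CPM in control and 852 CPM in B16-F10 gCap-like cells, a log2 ratio of -0.53 (-0.56 to -0.51), which is 1.45-fold. In vein-like cells, where the control level was highest, it was 1614 and 1334 CPM (-0.27). The log2 ratios in aCap-like and artery-like cells were -0.09 and -0.10, and both were above 0 when each cell was thinned to 2000 UMIs (0.06 and 0.03).

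Id1 (ENSMUSG00000042745, chr2:152736251-152737410, plus strand) did not follow Id2 and Id3 in gCap-like cells. Its level was 583 CPM in the control and 641 CPM in the B16-F10 library, a log2 ratio of 0.14 (0.11 to 0.17). In the other blood vessel types it was lower in the B16-F10 library, with 843 and 779 CPM in aCap-like cells (-0.11), 1042 and 917 CPM in artery-like cells (-0.18) and 1029 and 845 CPM in vein-like cells (-0.28). The opposite directions were small, and the sign of the gCap-like value turned when clusters were left out or all ECs were summed, as shown by cluster below. That of the aCap-like value turned when cells were thinned to equal depth. Artery-like and vein-like cells had the highest Id1 levels in both libraries and their intervals overlapped in each library.

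**Figure D2:**
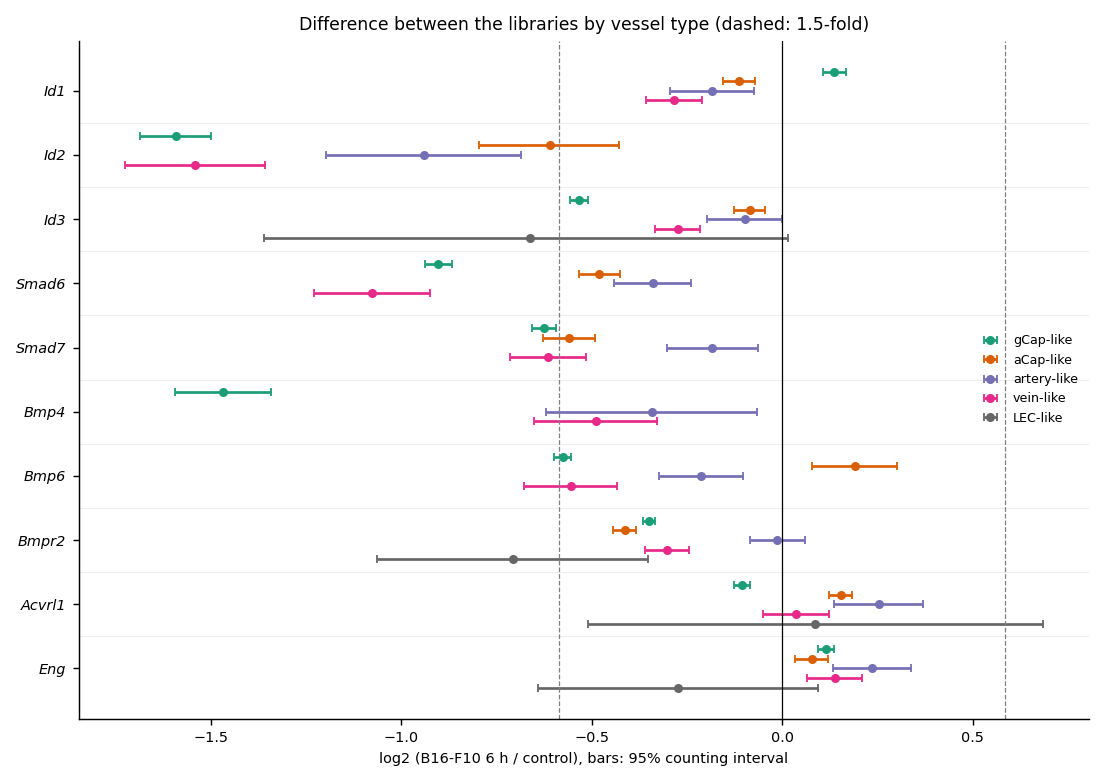
Difference between the libraries as log2 (B16-F10 6 h / control) for each gene and vessel type with at least 50 UMIs, with 95% counting intervals; dashed lines mark 1.5-fold. Id2, Smad6 and Smad7 lie left of 0 in all 4 blood vessel types, Id2 at -1.59 in gCap-like cells, while Eng lies right of 0 in these 4 types.

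The inhibitory SMADs, which block the receptors and receptor SMADs and are themselves BMP targets, were both lower. Smad6 (ENSMUSG00000036867, chr9:63953076-64022059, minus strand) had 620 CPM in control and 332 CPM in B16-F10 gCap-like cells, a log2 ratio of -0.90 (-0.94 to -0.87). Vein-like cells, with the lowest Smad6 level of the blood vessel types, had 348 and 165 CPM (-1.08). Artery-like cells, with the highest level, had 1340 and 1058 CPM (-0.34), and aCap-like cells had 564 and 404 CPM (-0.48). Each of the 4 types was thus lower beyond counting error, by 1.27-fold in artery-like cells and 2.11-fold in vein-like cells. When BMP and response genes were kept in the clustering, the artery-like class held 65 and 34 cells in place of 186 and 140. In that smaller set the artery-like Smad6 call was lost, at -0.06. Smad7 (ENSMUSG00000025880, chr18:75367529-75395935, plus strand) had 648 and 420 CPM in gCap-like cells (-0.63), 647 and 423 CPM in vein-like cells (-0.61) and 358 and 243 CPM in aCap-like cells (-0.56). In artery-like cells, where its level was highest, it had 902 and 794 CPM (-0.18).

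Both ligands were lower in gCap-like cells. Bmp4 (ENSMUSG00000021835, chr14:46383520-46390669, minus strand), a ligand of the type I receptors ALK3 and ALK6, had 1745 UMIs (62.4 CPM) in the control and 727 UMIs (22.6 CPM) in the B16-F10 library, a log2 ratio of -1.47 (-1.59 to -1.34). It was most abundant in vein-like cells, at 238 and 170 CPM (-0.49), followed by artery-like cells at 183 and 145 CPM (-0.34). In aCap-like cells it had 27 and 9 UMIs, of which free RNA could supply 35.4% and 59.3%. Bmp6 (ENSMUSG00000039004, chr13:38345107-38500302, plus strand), known from liver ECs as a regulator of hepcidin, had 1270 CPM in control and 851 CPM in B16-F10 gCap-like cells, a log2 ratio of -0.58 (-0.60 to -0.55) that is just short of 1.5-fold. Vein-like cells had 434 and 295 CPM (-0.56) and artery-like cells 1063 and 917 CPM (-0.21). In aCap-like cells the Bmp6 level was low and ran the other way, at 102 and 116 CPM (0.19, 0.08 to 0.30), but was within counting error without doublet removal (0.03).

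None of the receptor genes was past 1.5-fold in a blood vessel type. Bmpr2 (ENSMUSG00000067336, chr1:59763400-59879014, plus strand), the type II receptor, had 2595 and 2038 CPM in gCap-like cells (-0.35), 1822 and 1368 CPM in aCap-like cells (-0.41) and 1727 and 1399 CPM in vein-like cells (-0.30). In artery-like cells it had 2294 and 2274 CPM, within counting error (-0.08 to 0.06). Acvrl1 (ENSMUSG00000000530, chr15:101128522-101145336, plus strand), the type I receptor ALK1, had 1176 and 1092 CPM in gCap-like cells (-0.11). It was higher in the B16-F10 library in aCap-like cells, at 1332 and 1482 CPM (0.15), and in artery-like cells, at 801 and 955 CPM (0.25). Vein-like cells had 678 and 696 CPM, within counting error. Eng (ENSMUSG00000026814, chr2:32646595-32682669, plus strand), the co-receptor endoglin, was higher in all 4 blood vessel types by small amounts, with 1113 and 1205 CPM in gCap-like cells (0.11) and 1064 and 1253 CPM in artery-like cells (0.24). When BMP and response genes were kept in the clustering (65 and 34 artery-like cells), the artery-like values were -0.07 for Eng and 0.02 for Acvrl1. Both were within counting error.

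Of the other blood vessels, veins had the most genes past 1.5-fold. Vein-like cells had 3 of 10 genes at least 1.5-fold lower, Id2, Smad6 and Smad7, and 0 higher, where 6.37% of 9342 genes were lower and 5.34% higher by this fold. Beyond counting error, 8 of the 10 were lower and 1 (Eng) higher in vein-like cells, against 15.3% and 12.5% of all genes. In artery-like cells Id2 was the 1 gene of 10 at least 1.5-fold lower and 0 were higher, where 7.94% and 8.97% of all genes were. There 7 of the 10 were lower and 2, Acvrl1 and Eng, higher beyond counting error, against 13.7% and 15.2% of all genes. When BMP and response genes were kept in the clustering, only 65 and 34 cells were named artery-like. Another EC cluster of 421 and 301 cells met the artery and gCap lists and stayed unnamed. In the cells named artery-like there, the directions of Smad7 (0.02), Bmp4 (0.28) and Bmp6 (0.20) turned, and Id2 (-0.48) was no longer past 1.5-fold. In aCap-like cells Id2 was likewise the 1 gene of 9 measured that was at least 1.5-fold lower, with 0 higher, where 8.10% and 6.46% of all genes were. This call was lost when cells were thinned to 2000 UMIs, with Id2 at -0.39 and within counting error. Beyond counting error 6 of these 9 were lower and 3, Bmp6, Acvrl1 and Eng, higher, against 27.4% and 27.9% of all genes. The median log2 ratios were -0.40 in vein-like, -0.18 in artery-like and -0.11 in aCap-like cells. Red cell markers rose from 505 to 3540 CPM in vein-like cells, while in aCap-like cells they fell from 1992 to 1094 CPM. The part of red cell RNA in these results was not tested. The difference between vessel types was not tested either.

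LEC-like cells had far fewer UMIs of these genes, and only Id3, Bmpr2, Acvrl1 and Eng reached 50 UMIs. Id1 had 22 and 24 UMIs in these cells (45.7 and 49.9 CPM), against levels of 583 CPM and above in the blood vessel types. Free RNA was estimated at 2.49% and 3.20% of the UMIs of LEC-like cells, which would supply 37.5% and 44.4% of their Id1 level and 34.6% and 54.0% of their Id3 level. Smad7 had 11 UMIs in the control and 0 in the B16-F10 library, which is at least 3.67-fold lower when 3 counts are taken as the floor of that library, and free RNA could supply 34.6% of the control level. Of the 4 measured genes, Id3 (49 and 31 UMIs) and Bmpr2 (176 and 108 UMIs) were past 1.5-fold, both lower, where 8.42% of 3977 genes were lower and 8.40% higher by this fold. The interval of Id3 included no difference, so at this depth only Bmpr2 (-0.71, -1.06 to -0.35) of the 4 was lower beyond counting error and 0 were higher, against 10.4% and 10.1% of all genes. Without doublet removal Bmpr2 was within counting error too (-0.12).

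The gCap-like cells came from 5 clusters that differed in their share of the libraries: cluster 0 held 1702 control and 1052 B16-F10 cells, cluster 2 held 693 and 1150, cluster 4 held 60 and 978, cluster 5 held 677 and 360, and cluster 8 held 626 and 134. Cluster 4 was led by Lalba, Tmem252 and Adamts9. Id2, Smad6, Bmp4, Bmp6 and Bmpr2 were lower beyond counting error in all 5 clusters. Smad7 was lower in 4 of the 5 and Id3 in 4 of the 5. The share of all genes that were lower is not given by cluster, so these counts have no background. In the gCap-like sum 33.9% of all genes were lower beyond counting error. In cluster 4 the differences were large, with Bmp4 at 61.2 and 7.57 CPM (-3.02, from 29 and 70 UMIs), Bmp6 at 1120 and 542 CPM (-1.05) and Smad7 at 610 and 308 CPM (-0.98). The control values of cluster 4 rest on 60 cells. The EC cluster left out for its arterial gene also had lower Id2, Bmp4 and Smad6, with Id2 at 151 and 68.2 CPM (-1.14), Bmp4 at 69.7 and 33.3 CPM (-1.06), and Smad6 at 1198 and 725 CPM (-0.72). Its Id3 (-0.36), Smad7 (-0.56), Bmp6 (-0.44) and Bmpr2 (-0.36) were lower too, while Id1 (0.12) and Acvrl1 (0.13) were higher and Eng was within counting error (0.02).

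**Figure D3:**
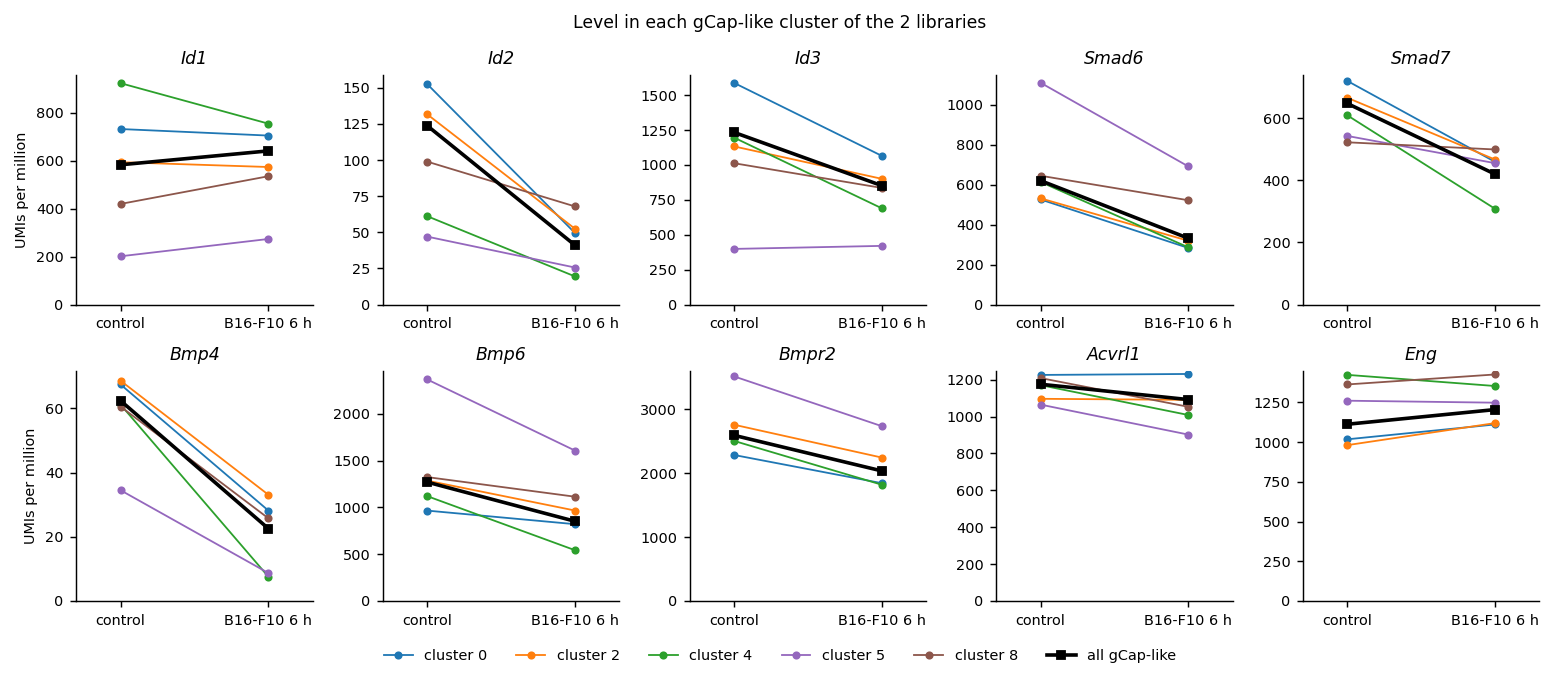
Level of each gene (CPM, linear axis from 0) in the control and B16-F10 6 h library for the 5 gCap-like clusters (coloured lines) and for all gCap-like cells (black). The lines of Id2, Smad6 and Bmp4 fall in all clusters. For Id1, cluster 4 falls from 924 to 755 and clusters 0 and 2 fall slightly, whereas all cells rise from 583 to 641.

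Id1 differed in direction between these clusters. It was lower in cluster 0 (733 and 705 CPM, -0.05) and cluster 4 (924 and 755 CPM, -0.29), within counting error in cluster 2 (594 and 574 CPM), and higher in cluster 5 (202 and 274 CPM, 0.44) and cluster 8 (420 and 536 CPM, 0.35). Clusters 5 and 8, with the lowest Id1 levels in both libraries, held more control than B16-F10 cells. Without clusters 4 and 8, each held mostly by 1 library, the Id1 log2 ratio was -0.04, and with all ECs summed it was -0.02. Cluster 5 had a median of 4007 UMIs per cell and was led mainly by predicted genes such as Gm20631 and Gm10503. Its Smad6 (1111 CPM), Bmp6 (2367 CPM) and Bmpr2 (3519 CPM) levels in the control library were the highest of the gCap-like clusters, and its Id1 (202 CPM), Id2 (47.0 CPM) and Id3 (398 CPM) levels were the lowest. The ID genes are short, spanning 1160 to 3342 bases, whereas Smad6, Bmp6 and Bmpr2 span 68984 to 155196 bases, of which 2.51% to 15.6% are exonic in GENCODE M21. Whether intronic reads were counted is not given in the sources used here, and the part of gene length in these levels was not tested.

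The aCap-like clusters were split between the libraries more strongly. Cluster 6 held 179 control and 796 B16-F10 cells, cluster 7 held 768 and 106, and cluster 10 held 500 and 67. Smad6 and Bmpr2 were lower beyond counting error in all 3 clusters and Smad7 in 2 of them. These counts too have no background by cluster, and 27.4% of all genes were lower in the aCap-like sum. Id2 was lower in cluster 6 (75.1 and 35.9 CPM, -1.06) and cluster 7 (56.9 and 31.0 CPM, -0.87), and within counting error in cluster 10, with 66 and 4 UMIs. Bmp6, which was higher over all aCap-like cells, was lower in cluster 6 (189 and 116 CPM, -0.70), within counting error in cluster 7 (67.4 and 70.9 CPM) and higher in cluster 10 (142 and 277 CPM, 0.97). Id1 was higher in cluster 6 (658 and 771 CPM, 0.23) and lower in cluster 7 (1069 and 991 CPM, -0.11). When each cell was thinned to 2000 UMIs, so that cells weigh equally, the Id1 log2 ratio of all aCap-like cells was 0.12, against -0.11 for the sum of all UMIs.

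The study names a capillary EC state, the reactive capillary EC (rCap), by a list of marker genes. gCap-like cells were scored by their UMIs of 44 rCap marker genes, none of which is among the 10 genes, after thinning each cell to 2000 UMIs. The marker list comes from the study, which drew it from data that include these libraries, so the share of high cells is no independent evidence. Above 35 UMIs, the 95th percentile of the control library, lay 4.08% of 3699 control and 54.4% of 3646 B16-F10 cells. The score is a range with no gap, and 205 control and 587 B16-F10 cells lay within 3 UMIs of the threshold.

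Within the B16-F10 library, cells above the threshold had lower Id2 (29.8 against 58.9 CPM, -0.99), Bmp4 (15.4 against 27.7 CPM, -0.85), Bmp6 (716 against 1105 CPM, -0.62), Smad6 (289 against 388 CPM, -0.42) and Smad7 (353 against 470 CPM, -0.41) than cells at or below it. Id1 was higher above the threshold, at 705 against 543 CPM (0.38), and so was Eng, at 1300 against 1127 CPM (0.21). In the control library the 151 cells above the threshold differed from the rest in the same direction for Id1 (0.47), Eng (0.20), Smad6 (-0.39), Smad7 (-0.34) and Bmp6 (-0.38). Bmp4 ran the other way there, with 106 against 62.7 CPM (0.76), from 32 and 445 UMIs. So did Id3, which was higher above the threshold in the control library (0.16, 0.01 to 0.30) and lower in the B16-F10 library (-0.11, -0.18 to -0.03).

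Lower levels were also seen at or below the threshold. Scores within this range were not matched between the libraries, whose median scores over all scored cells were 20 in control and 38 in B16-F10. Whether cells of equal score differed was not tested. Among cells at or below the threshold, B16-F10 cells still had lower Bmp4 (-1.18, -1.52 to -0.85), Id2 (-1.01, -1.24 to -0.79), Smad6 (-0.77, -0.86 to -0.68), Smad7 (-0.53, -0.61 to -0.44), Id3 (-0.44, -0.50 to -0.38) and Bmp6 (-0.28, -0.34 to -0.23) than control cells. For Id1 the log2 ratio was -0.09 (-0.17 to -0.01) at or below the threshold and -0.19 (-0.38 to 0.01) above it. Id1 was thus not higher in the B16-F10 library in either range, although it was higher in the sum over both. Eng showed the same pattern, with -0.01 in each range.

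**Figure D4:**
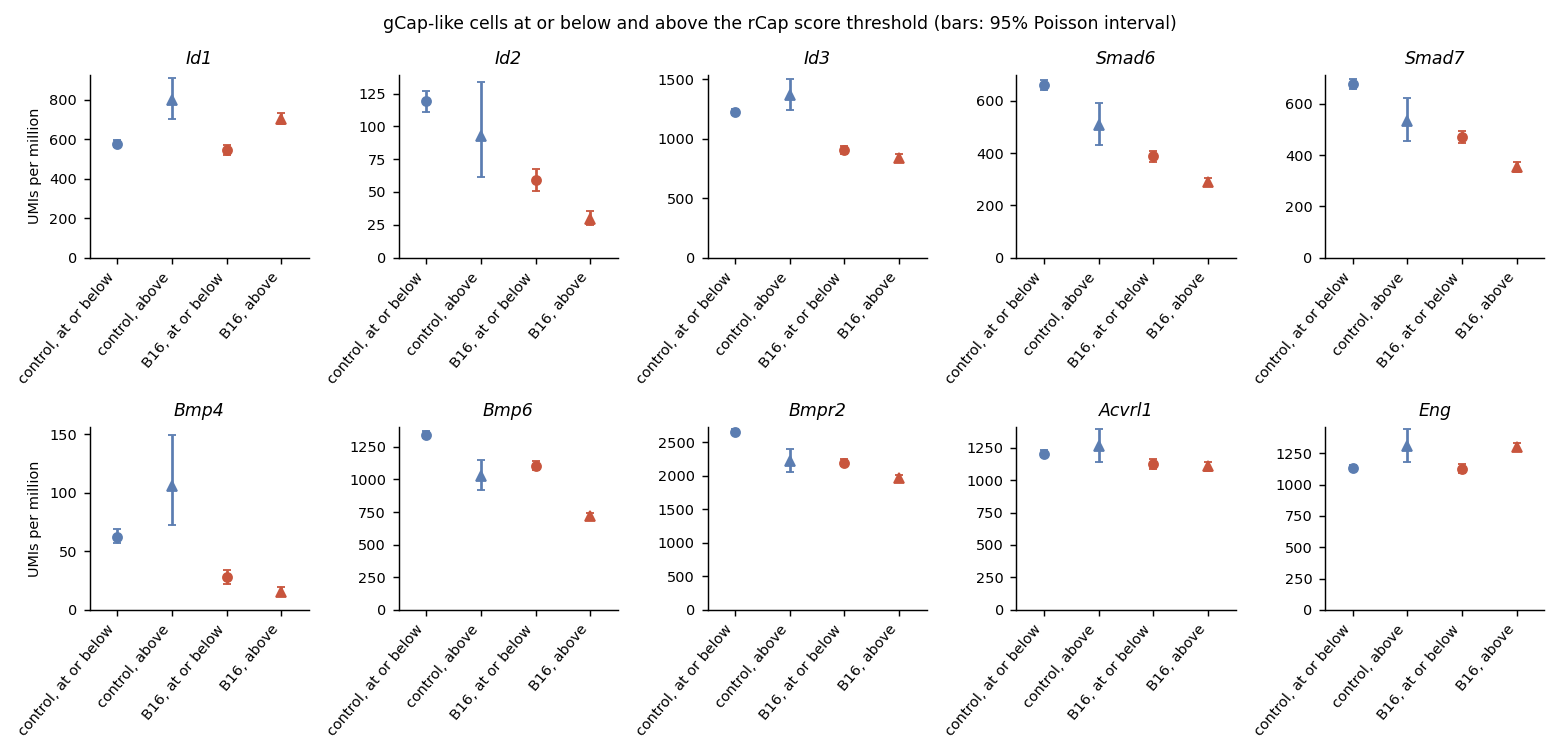
Level of each gene (CPM of thinned cells, linear axis from 0, bars 95% Poisson intervals) in gCap-like cells at or below (circles) and above (triangles) an rCap score of 35 UMIs, in the control (blue) and B16-F10 6 h (red) library. Id2 goes from 119 in control cells at or below the threshold to 29.8 in B16-F10 cells above it, whereas Id1 is higher above the threshold in both libraries.

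The share of cells in which a gene was seen gave a similar order. At 2000 UMIs per cell, 18.5% of control (17.2% to 19.8%) and 7.65% of B16-F10 gCap-like cells (6.81% to 8.56%) had an Id2 UMI, compared with 45.1% and 22.5% of cells before thinning. For Smad6 the shares were 62.1% and 40.7%, for Smad7 69.0% and 51.7%, and for Bmp4 11.1% and 4.0%. For Id1 they were 58% and 61.2%, and for Id3 81.9% and 71.0%. Thinning left out 59 control and 28 B16-F10 gCap-like cells that were too shallow. In leukocytes of the B16-F10 library, which should lack Bmp4 and had a median of 8134 UMIs, 0 of 112 cells had a Bmp4 UMI, which allows a share of up to 2.68% by the floor of 3 counts and 3.24% by the exact 95% limit, and 3.57% had a Smad6 UMI. Id2 was seen in 8.93% of these leukocytes and in 6.49% of 77 melanoma cells, near the B16-F10 gCap-like share of 7.65%. Leukocytes can express Id2 and give no background for it, so the 7.65% is not read as a share of expressing cells. Free RNA was estimated to supply 2.35% of the Id2 level of B16-F10 gCap-like cells and 1.43% of that of control gCap-like cells. Vein-like cells had Id2 in 43.0% of control and 18.1% of B16-F10 cells.

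The wider BMP pathway was taken from a list of 73 genes, 63 beside the 10. In gCap-like cells 38 of the 63 had at least 50 UMIs, 8 of these were at least 1.5-fold lower and 3 at least 1.5-fold higher, where 9.47% and 7.79% of all genes were. Their median log2 ratio was -0.19. Genes of the list that were not past 1.5-fold are named below after their values were seen. Among the targets of the list, Tmem100, which is induced by ALK1 signalling in ECs, had 2881 CPM in control and 1640 CPM in B16-F10 gCap-like cells (-0.81). Hey1 had 264 and 170 CPM (-0.63), and Hey2 had 97 and 24 UMIs (-2.22). Id4 was low, with 29 and 22 UMIs. Vein-like cells also had lower Tmem100 (953 and 590 CPM, -0.69) and Hey1 (48.2 and 26.3 CPM, -0.88). In aCap-like cells Tmem100 had 1710 and 1561 CPM (-0.13), Hey1 was within counting error (122 and 94 UMIs), and the target Msx1 was higher (72 and 104 UMIs, 0.80). In artery-like cells Tmem100 had 1393 and 1068 CPM (-0.38), Hey1 was within counting error, and Hey2 (86 and 18 UMIs, -2.13) and Msx1 (48 and 19 UMIs, -1.21) were lower.

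The 3 receptor SMADs of the BMP branch did not move together. Smad9, which is itself a BMP target, was lower in gCap-like cells, with 309 and 84 UMIs or 11.0 and 2.61 CPM (-2.08). Smad1 was higher, at 99.5 and 140 CPM (0.49), and so was Smad5, at 46.9 and 58.7 CPM (0.32), both below 1.5-fold. The shared Smad4 had 145 and 123 CPM (-0.24). Bambi, a pseudoreceptor that blocks signalling and is induced by it, had 20.2 and 8.44 CPM (-1.26), and 99.6 and 46.8 CPM in vein-like cells (-1.09).

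Among the receptors of the list, the type II receptor Acvr2b was lower (23.1 and 15.4 CPM, -0.59), and the type I receptor Bmpr1a, with 30 and 64 UMIs, was higher (0.89, 0.24 to 1.57). Bmpr1b had 132 and 22 UMIs in aCap-like cells (-2.32). Of the extracellular antagonists, Mgp was higher in gCap-like cells (13 and 21.7 CPM, 0.74) and aCap-like cells (5.95 and 16.6 CPM, 1.48), and Nbl1 was higher in gCap-like cells, with 64 and 124 UMIs (0.75). Of the other ligands only Bmp2 (41 and 49 UMIs) and Bmp5 (25 and 42 UMIs) reached 50 UMIs, both within counting error. Gdf2, which encodes BMP9, had 0 UMIs in gCap-like cells of both libraries and Bmp10 had 2 and 0. A count of 0 in control gCap-like cells allows a level of up to 0.107 CPM. Smurf2, a ubiquitin ligase for SMADs and receptors, had 572 and 401 CPM (-0.51), and Fkbp1a, which holds type I receptors inactive, had 569 and 790 CPM (0.47). Of the E proteins bound by ID proteins, Tcf4 had 1144 and 1560 CPM (0.45), while Tcf3 and Tcf12 had log2 ratios of -0.09 and -0.11. In the TGF-beta branch, listed for comparison, 1 of 5 measured genes was past 1.5-fold, Tgfb2, with 147 and 97 UMIs (-0.80), where 9.47% of all genes were lower and 7.79% higher by this fold.

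**Figure D5:**
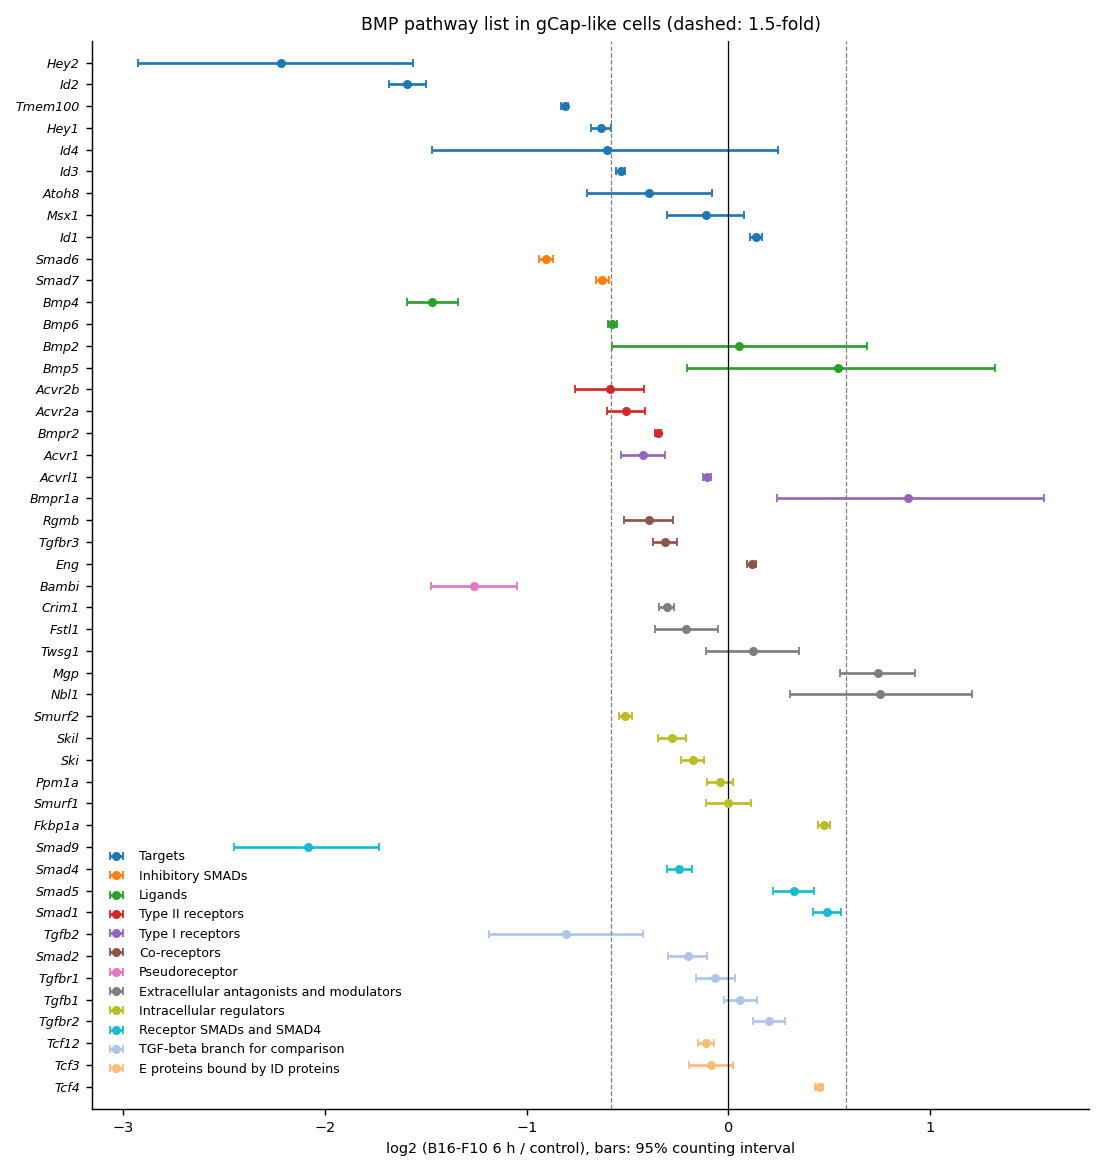
Log2 (B16-F10 6 h / control) in gCap-like cells for the genes of the BMP pathway list with at least 50 UMIs, the 10 genes included, ordered by role, with 95% counting intervals and dashed lines at 1.5-fold. Hey2, Smad9, Id2, Bmp4 and Bambi lie farthest to the left, between -2.22 and -1.26, and Bmpr1a, Nbl1 and Mgp farthest to the right, between 0.74 and 0.89.

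Sequence ahead of a RefSeq start site is shown for 4 genes that differ in their response, Id2, Smad6 and Bmp4, which were lower in gCap-like cells, and Eng, which was not. The stretches begin 250 bases before the RefSeq start site on the coding strand (GRCm38.p6). They end before the first base that GENCODE M21 annotates as exonic. They lie at chr12:25096254-25096342 (minus strand) for Id2, chr9:64022060-64022309 (minus strand) for Smad6, chr14:46390670-46390919 (minus strand) for Bmp4 and chr2:32646345-32646594 (plus strand) for Eng. Capitals mark matches on either strand to GGCGCC, the GC-rich element of SMAD1 and SMAD5, and to CAGAC, the SMAD-binding box.
Id2: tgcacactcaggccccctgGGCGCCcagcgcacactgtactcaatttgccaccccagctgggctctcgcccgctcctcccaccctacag
Smad6: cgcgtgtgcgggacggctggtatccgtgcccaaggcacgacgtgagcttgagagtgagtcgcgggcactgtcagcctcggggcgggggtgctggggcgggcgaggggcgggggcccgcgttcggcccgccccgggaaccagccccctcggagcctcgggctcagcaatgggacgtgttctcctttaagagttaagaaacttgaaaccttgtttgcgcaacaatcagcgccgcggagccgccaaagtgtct
Bmp4: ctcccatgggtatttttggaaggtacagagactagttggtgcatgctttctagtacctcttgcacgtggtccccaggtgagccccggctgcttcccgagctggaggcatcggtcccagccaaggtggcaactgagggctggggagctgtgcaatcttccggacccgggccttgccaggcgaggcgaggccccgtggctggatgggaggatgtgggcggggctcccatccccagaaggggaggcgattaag
Eng: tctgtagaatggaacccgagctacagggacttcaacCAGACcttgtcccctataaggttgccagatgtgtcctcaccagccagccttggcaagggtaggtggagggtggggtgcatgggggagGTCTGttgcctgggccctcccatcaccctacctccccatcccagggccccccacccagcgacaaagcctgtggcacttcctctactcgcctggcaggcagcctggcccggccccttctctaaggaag
The Smad6, Bmp4 and Eng stretches end where the GENCODE gene begins, whereas the Id2 stretch lies inside the GENCODE gene, outside its annotated exons. The Id2 stretch is the far end of its window, and bases annotated as exonic lie between it and the RefSeq start. GGCGCC was found in the Id2 stretch and in none of the other 3, and CAGAC was found only in Eng, at 2 places. No match of one motif overlapped the other. Of the 250-base windows before the start of 27025 genes, 9.54% held GGCGCC and 42.1% held CAGAC, while the Id2 stretch is shorter, at 89 bases, and is not set against these windows. The matches are a description of these windows and say nothing of binding. The promoter table held no entry for Id1, Smad7 and Acvrl1, and the windows of Id3, Bmp6 and Bmpr2 began in an annotated exon.

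Over the 10 sums of 5 vessel types and 2 libraries, the genes with the most similar levels were compared by Pearson correlation of log2(CPM + 1) among 11603 genes with at least 200 UMIs. These correlations are a description, since the sums share libraries and are dominated by the gap between LEC-like cells and blood vessels. Id1 and Id3 shared Ehd4 and Adcy4 among their 3 nearest genes, besides Nfatc4 for Id1 (0.99) and Flt1 for Id3 (0.99). The nearest genes of Id2 were Klhl13 (0.98), Atad2 and Chek2 (0.95 each). Those of Smad6 were Eml1, Tusc3 and Uspl1, and those of Smad7 were Hpgd, Plekha8 and Ifih1. For Bmp4 they were Gask1b, Cd44 and Mxra8, for Bmp6 Zeb2, Prodh and Aldh2, for Bmpr2 Tmeff1, Acyp2 and Cav1, for Acvrl1 Ccdc51, Kif7 and Gata2, and for Eng Lurap1l, Aldh2 and Pltp. Among the 10 genes themselves, Id1 and Id3 were most alike (0.98), and Bmp4 and Acvrl1 least (0.23).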

How the data were processed

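Single-cell RNA libraries of sorted lung ECs from control and B16-F10-injected mice were analysed, 1 pooled library per group. The authors deposited UMI counts per gene and barcode, not normalized; the submitters' processing notes name Cell Ranger 7.2.0, Seurat 4.4.0 and mm10, while the study's own text names another Cell Ranger version, and versions can differ in whether they count introns. Whether intronic reads were counted is not given in the sources used here. The libraries held 85794655 and 104978816 UMIs. Cells were required to have between 1000 and 5000 genes, with less than 20% of UMIs from mitochondrial genes, and 564 and 554 doublets (6.72% and 6.66%) were removed with Scrublet at 0.8% per 1000 cells. Cells were clustered together (scanpy 1.11.5, leidenalg 0.10.2, 30 components, resolution 0.8) without BMP, rCap and interferon genes. Clusters were taken as ECs with at least 6 endothelial markers, each seen in at least 50% of their cells. Vessel types were named from marker lists. A marker counted for a cluster if at least 10% of its cells held it and its level was raised there by 1.5-fold or more. A type needed at least 3 such markers and at least 50% of its list. A cluster with more markers of another type than of its own among its top 10 genes stayed unnamed.

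UMIs were summed per vessel type and library, scaled to counts per 1000000 UMIs (CPM) and compared as log2 ratios with exact intervals (scipy 1.17.1), which cover counting error only. A gene was measured with at least 50 UMIs over both sums. Free RNA was estimated from 37 genes in barcodes of 1 to 100 UMIs. Only the log2 ratio and its interval were tested on simulated data, with counts drawn for the gCap-like sums. No test across groups was possible. The naming rule covered the 10 genes, pathway genes past 1.5-fold in gCap-like cells beyond counting error, measured ligands, and the 3 most similar genes of each. Other pathway genes were named after their values were seen. The members and lists were chosen with earlier results of these data known. Gene positions are from GENCODE M21 (32235 of 32285 IDs matched) and promoters from RefSeq (7 of 10 genes). In all, 13 planned and 3 added alternatives were run.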

Additional observations from a re-analysis of the deposited data

Results flagged for a closer look

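Of the 9 genes measured in all 4 blood vessel types, 3 had log2 ratios in opposite directions between types beyond counting error, as did 8.69% of the 7005 genes measured in all 4. The difference between vessel types was not tested, since each group is 1 library. Id1 was higher in the B16-F10 library in gCap-like cells (0.14) and lower in aCap-like (-0.11), artery-like (-0.18) and vein-like cells (-0.28). The gCap-like Id1 value was -0.04 without clusters held mostly by 1 library. Id1 was at 0.12 in aCap-like cells after thinning and at 0.16 in artery-like cells at 500 genes (422 and 336 cells). The vein-like Id1 value stayed between -0.30 and -0.25. Bmp6 was higher in aCap-like cells (0.19) and lower in gCap-like (-0.58), artery-like (-0.21) and vein-like cells (-0.56). Acvrl1 was higher in aCap-like (0.15) and artery-like cells (0.25) and lower in gCap-like cells (-0.11). The artery-like Acvrl1 value was 0.02 when BMP and response genes were kept in the clustering (65 and 34 cells). The aCap-like Bmp6 value was 0.03 without doublet removal. Both were within counting error.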

How the results depend on the processing

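Over 53 results and 718 alternative values, 570 stayed the same, 137 moved and 11 reversed, and for the log2 ratios of single genes it was 463, 110 and 10. In gCap-like cells 3 or 4 of the 10 genes were past 1.5-fold under all 16 alternatives. Their median log2 ratio was -0.47 with all ECs summed, -0.53 at resolution 1.6, -0.51 after dividing ratios by their median over all genes, -0.53 with the arterial-side cluster added, -0.43 without clusters held mostly by 1 library and -0.50 in cells without a UMI of other cells' markers. The last 3 alternatives were chosen after seeing the data. The gCap-like Id1 ratio was -0.024 with all ECs summed and -0.041 without clusters held mostly by 1 library. In aCap-like cells the count past 1.5-fold was 0 without an upper limit of genes, after thinning to 2000 UMIs and without other cells' markers, and 2 without doublet removal and at a minimum of 10 UMIs. The aCap-like median was 0.063 after thinning, with Id1 at 0.12 and Id3 at 0.063, -0.26 without doublet removal and at 10 UMIs, and -0.16 without other cells' markers. In artery-like cells the count was 2 at 500 genes per cell, under 10% mitochondrial UMIs and without other cells' markers, where the median was -0.31. Keeping BMP and response genes in the clustering gave 65 and 34 artery-like cells, an artery count of 0 and a median of -0.023. The artery ratios there were 0.018 for Smad7, 0.28 for Bmp4, 0.20 for Bmp6 and -0.070 for Eng. Artery Id1 was 0.16 at 500 genes and artery Id3 0.026 after thinning. The vein-like count was 5 after thinning. The LEC-like count was 0 under 10% mitochondrial UMIs and without other cells' markers, 1 after thinning, and 4 without doublet removal and at 10 UMIs, with a median of 0.45 without doublet removal. The cells named as a type also changed between settings. Artery-like cells numbered 422 and 336 at 500 genes per cell, and LEC-like cells 59 and 63 without doublet removal. The cause of the changed values was not tested. The limit of 4000 UMIs removed no vessel cluster, since the shallowest had a median of 4007. No paired analysis was possible because the control and B16-F10 samples are single libraries.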

Other observations

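The EC cluster that met no vessel type was held almost wholly by the B16-F10 library, with 8 control and 305 B16-F10 cells, and was led by Csf2 and Sox9, a cytokine and a transcription factor. Its levels in the B16-F10 library were 615 CPM for Bmpr2, 200 CPM for Bmp6, 127 CPM for Smad6 and 147 CPM for Smad7, each below the level of B16-F10 gCap-like cells (2038, 851, 332 and 420 CPM). Acvrl1 was at 763 CPM and Eng at 588 CPM there, and Id2 at 27.9 CPM. Since only 8 control cells fell into the cluster, no comparison between the libraries is drawn from it.

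T and NK cells expressed Id2, which serves lymphoid development, with 58 UMIs in 8 control cells (814 CPM) and 72 UMIs in 26 B16-F10 cells (310 CPM). Barcodes of 1 to 100 UMIs, which hold mostly free RNA, showed Id2 at 109 CPM in the control and 51.3 CPM in the B16-F10 library, Smad6 at 418 and 224 CPM, and Id1 at 687 and 693 CPM.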
